A study of Mus musculus with 4 samples.

Results

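The genes described here are 33 genes of the hypoxia response and of glycolysis, taken as a list of symbols and all found among the 32285 genes of the deposited count matrices. The samples are leukocytes selected with beads for CD45 from CT26 tumours, a mouse colon carcinoma line grown in Balb/c mice of 9 weeks. Both liproxstatin libraries came from tumours treated for 8 days with liproxstatin, an inhibitor of ferroptosis (the iron-dependent death of cells by lipid peroxidation), and both control libraries from tumours labelled control. Every group carries the tumour. What the control mice received, and whether replicates are separate animals, is not given in the sources used here, so every p-value here reflects differences among 4 libraries that may be technical. The series as a whole asks about ferroptosis in neutrophils of the tumour.

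Cells short of oxygen stabilise HIF1A, a transcription factor that prolyl hydroxylases (EGLN1 and EGLN3) otherwise mark for destruction. HIF raises glucose transporters, glycolytic enzymes and the export of lactate, restrains the entry of pyruvate into mitochondria and induces mitophagy receptors. Neutrophils are known to rely mainly on glycolysis for energy, and macrophages in poorly perfused parts of tumours are known to switch on HIF targets.

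The libraries held 168597163 and 165165389 unique molecular identifiers (UMIs, each standing for 1 captured RNA molecule) in liproxstatin replicates 1 and 2, and 83129874 and 162158147 in control replicates 1 and 2. Of 29092 barcodes, 25682 were kept, and 67 barcodes occurred in more than 1 library. Ptprc, which encodes CD45, had a UMI in 89.7% and 93.5% of the kept liproxstatin cells and in 81.9% and 89.3% of the kept control cells. A gate on marker genes, with none of the 33 genes among them, gave 90.2% of the kept cells a label. The labelled cells include 1650 between monocytes and macrophages, 569 other T cells, 77 fibroblasts and 3 endothelial cells, which are not among the 11 classes described below. Neutrophils numbered 530 and 340 in liproxstatin and 85 and 349 in control. Macrophages numbered 3403 and 3726 in liproxstatin and 1747 and 3092 in control. Control replicate 1 stood apart by its low total and its few neutrophils, and results that turn on it are given with and without it. Levels are UMIs summed over the cells of a class in 1 library, scaled to counts per 1e6 UMIs of that sum (CPM). They come from the 3′ ends of transcripts and are compared for 1 gene between classes or libraries, not between genes. Gapdh, Pgk1, Pgam1, Tpi1, Ldha, Aldoa and Eno1 have near-identical copies elsewhere in the genome, so their counts are uncertain.

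The start regions of 5 of the genes are printed because the results turn on P4ha1, Slc16a3, Egln3 and Ankrd37, and Ldha is the best known of the glycolytic targets. Capitals mark the letters ACGTG or GCGTG, the core that HIF is known to bind, on either strand. Each window runs 5′ to 3′ on the gene's strand from 250 bases before the start to 50 bases from the start on, after RefSeq on GRCm38.p6. The windows are chr10:59323046-59323345 (plus strand) for P4ha1, chr11:120948817-120949116 (plus strand) for Slc16a3, chr12:54203825-54204124 (minus strand) for Egln3, chr8:45999801-46000100 (minus strand) for Ankrd37 and chr7:46845554-46845853 (plus strand) for Ldha.
P4ha1: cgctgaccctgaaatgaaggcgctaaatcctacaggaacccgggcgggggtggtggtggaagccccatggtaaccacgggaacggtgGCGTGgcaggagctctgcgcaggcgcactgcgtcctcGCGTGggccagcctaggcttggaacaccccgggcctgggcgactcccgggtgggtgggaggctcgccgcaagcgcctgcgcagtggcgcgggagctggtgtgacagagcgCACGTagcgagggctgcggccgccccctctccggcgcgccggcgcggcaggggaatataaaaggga
Slc16a3: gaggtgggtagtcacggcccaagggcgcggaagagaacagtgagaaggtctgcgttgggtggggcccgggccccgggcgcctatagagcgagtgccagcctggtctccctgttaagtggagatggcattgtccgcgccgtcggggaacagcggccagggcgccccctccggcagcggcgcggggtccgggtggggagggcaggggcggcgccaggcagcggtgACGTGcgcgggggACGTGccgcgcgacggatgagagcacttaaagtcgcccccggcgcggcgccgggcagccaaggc
Egln3: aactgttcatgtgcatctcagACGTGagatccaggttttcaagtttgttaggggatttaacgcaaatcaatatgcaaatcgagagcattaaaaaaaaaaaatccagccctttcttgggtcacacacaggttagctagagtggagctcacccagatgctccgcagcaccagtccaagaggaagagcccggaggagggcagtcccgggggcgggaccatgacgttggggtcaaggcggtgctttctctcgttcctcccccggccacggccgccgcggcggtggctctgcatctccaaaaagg
Ankrd37: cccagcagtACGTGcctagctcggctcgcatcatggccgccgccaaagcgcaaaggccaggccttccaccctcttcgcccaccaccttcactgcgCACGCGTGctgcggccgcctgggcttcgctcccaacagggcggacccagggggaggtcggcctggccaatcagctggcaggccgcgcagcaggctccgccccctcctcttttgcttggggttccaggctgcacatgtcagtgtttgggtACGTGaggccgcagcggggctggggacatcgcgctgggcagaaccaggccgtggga
Ldha: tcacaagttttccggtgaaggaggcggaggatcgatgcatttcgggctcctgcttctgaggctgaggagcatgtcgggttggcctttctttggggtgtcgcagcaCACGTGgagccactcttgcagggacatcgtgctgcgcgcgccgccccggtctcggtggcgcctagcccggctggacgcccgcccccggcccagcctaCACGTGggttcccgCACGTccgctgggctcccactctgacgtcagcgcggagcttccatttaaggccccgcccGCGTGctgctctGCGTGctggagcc
Counting each strand, P4ha1 had 3 matches, Slc16a3 2, Egln3 1, Ankrd37 4 and Ldha 7, and matches may overlap, as they do in CACGTG. Windows were matched for 29 of the 33 genes, 46 windows in all, and not for Slc2a3, Bnip3l, Ndrg1 and Ero1l. ACGTG occurred in 54.3% of these 46 windows and in 19.6% of all 32851 windows, GCGTG in 54.3% and 32.4%, and either in 80.4% and 43.8%. Windows of 1 gene can overlap, so the same letters can count more than once. Counted per gene, with a match in any window, ACGTG occurred in 75.9% of the 29 genes and 21.8% of all 27025 genes. For GCGTG this was 62.1% and 35.2%, and for either 93.1% and 46.7%. The median share of G and C was 65% in the 46 windows and 52.7% in all windows, and its part in these shares was not tested. A match describes letters, and binding was not measured.

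Across 11 immune classes, neutrophils had the highest mean level of 13 of the 33 genes, among them all 3 transporters (Slc2a1, Slc2a3, Slc16a3). The others were Hk2, Hk3, Pfkl, Pfkfb3, Kdm3a, Egln3, Bnip3, P4ha1, Ero1l and Hilpda. The share of all genes highest in neutrophils was not counted. Means were ranked without a test, and ranges could overlap. Hk3, for example, had 92.1 CPM (61.2 to 119) in neutrophils and 81.9 CPM (71.1 to 89.0) in macrophages. Monocytes were highest for 8 genes, macrophages and mast cells or basophils for 4 each, regulatory T cells for 3 and conventional dendritic cells for 1. Hif1a itself was highest in regulatory T cells, with a mean of 858 CPM (lowest library 719.6, highest 1019), ahead of conventional CD4 T cells with 721 CPM (588 to 961), and these ranges overlapped. Neutrophils followed with 379 CPM (334 to 411), monocytes with 369.9 CPM (318 to 429) and CD8 T cells with 311 CPM (244 to 383), again with ranges that overlapped. Hif1a in macrophages, at 108 CPM (96.5 to 126), lay below all of these ranges. P4ha2, a catalytic subunit of collagen prolyl hydroxylase, had 69.2 CPM (54.6 to 82.2) in mast cells or basophils and 6.30 CPM (5.56 to 7.85) in macrophages, the next class.

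**Figure D1:**
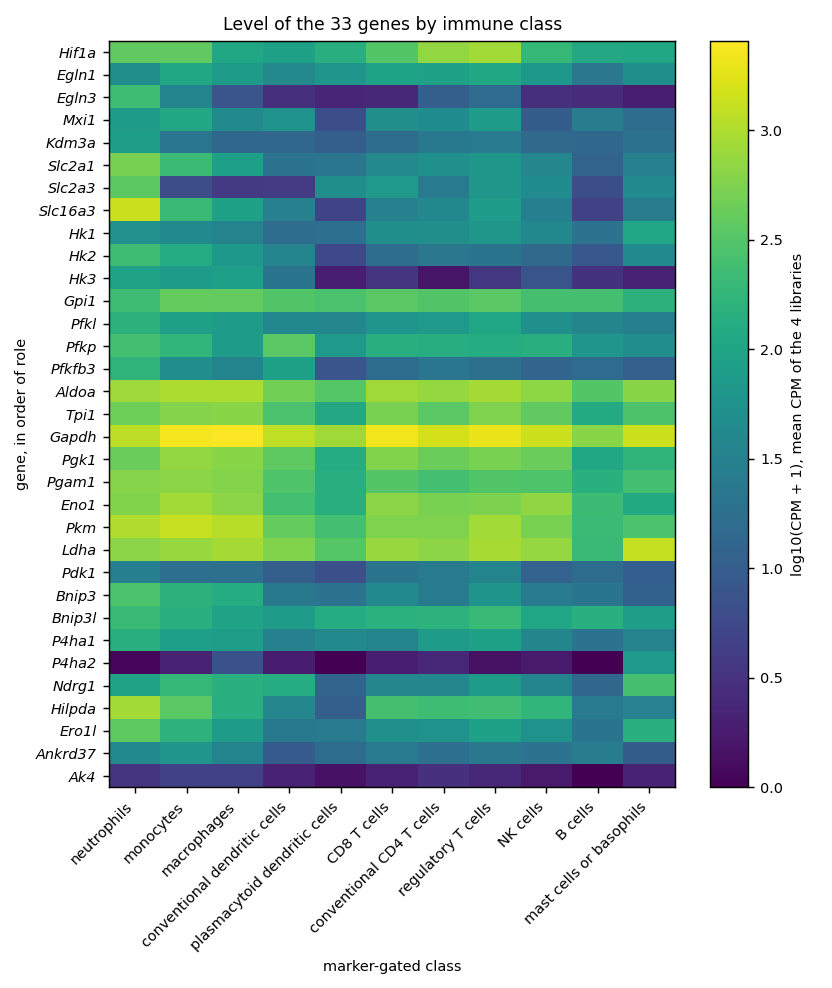
Colour gives log10(CPM + 1), from the mean CPM of the 4 libraries, for the 33 genes (rows, in order of role) in 11 marker-gated classes (columns). Slc2a3 stands out in neutrophils, at 349.6 CPM, and P4ha2 in mast cells or basophils, at 69.2 CPM.

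Genes of glucose uptake and lactate export took a far larger share of the UMIs of neutrophils than of macrophages of the same libraries. The median neutrophil held 3357 UMIs and the median macrophage 27245, so CPM compares shares and not molecules per cell. Slc2a3, the high-affinity glucose transporter GLUT3, had 347 and 294 CPM in liproxstatin and 312 and 445 CPM in control neutrophils, against 3.73 and 2.17 CPM in liproxstatin and 2.46 and 2.80 CPM in control macrophages. Slc16a3, the lactate exporter MCT4, had 1255 and 1259 CPM in liproxstatin and 1608 and 1245 CPM in control neutrophils, against 90.2 and 93.8 CPM in liproxstatin and 70.3 and 103 CPM in control macrophages. Slc2a1, the widespread glucose transporter GLUT1, had 554 and 515 CPM in liproxstatin and 478 and 472 CPM in control neutrophils, against 90.0 and 83.5 CPM in liproxstatin and 65.3 and 89.3 CPM in control macrophages. For all 3 genes every neutrophil sum lay above every macrophage sum. In UMIs per cell, Slc2a3 had 1.23 and 0.838 in liproxstatin and 1.20 and 1.72 in control neutrophils, against 0.106 and 0.0548 in liproxstatin and 0.0756 and 0.0935 in control macrophages. Slc16a3 had 4.45 and 3.59 in liproxstatin and 6.18 and 4.80 in control neutrophils, against 2.57 and 2.37 in liproxstatin and 2.16 and 3.42 in control macrophages. Per cell, Slc2a1 was lower in every neutrophil library than in any macrophage library. Slc2a3, Slc16a3 and Egln3 were the 3 of the 33 genes with more UMIs per cell in every neutrophil library, 28 had fewer, and Kdm3a and Hilpda overlapped. The same order was not counted over all genes, and neutrophils held fewer UMIs per cell in total. These counts are therefore not read as a trait of the set. The log2 fold changes, neutrophils over macrophages, were 7.74 ± 0.22 for Slc2a3, 4.66 ± 0.20 for Slc16a3 and 3.38 ± 0.18 for Slc2a1 (SE, 4 libraries, library as a block), and each passed edgeR's quasi-likelihood test at an adjusted p under 0.05.

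Of the 33 genes, 24 were higher in neutrophils, 2 were lower and 7 were not called. Of all 12639 genes tested, 69.4% were called, 27.2% as higher and 42.2% as lower. The median log2 fold change was 1.53 over the 33 genes and -0.70 over all genes. The scaling moves this split. With library totals alone in place of TMM factors, an alternative chosen after seeing the data, 18 genes were higher and 9 lower, where 19.3% of all genes were higher and 60.2% lower, and the medians were 0.76 over the 33 genes and -1.52 over all genes. Aldoa was called higher with TMM and lower with totals alone. Ldha, Tpi1, Pgk1, Egln1, Ndrg1 and Gpi1 were not called with TMM and were lower with totals alone.

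Among the regulators, Egln3, the hydroxylase that HIF itself induces, had 263 and 222 CPM in liproxstatin and 150 and 249.5 CPM in control neutrophils, against 7.61 and 5.40 CPM in liproxstatin and 4.597 and 10.2 CPM in control macrophages. Every neutrophil sum was above every macrophage sum, with a log2 fold change of 5.798 ± 0.20. Egln1, the hydroxylase that acts in most cells at rest, was at 0.18 ± 0.19 and was not called. Hif1a had 399 and 372 CPM in liproxstatin and 334 and 411 CPM in control neutrophils, against 126 and 113 CPM in liproxstatin and 96.5 and 96.8 CPM in control macrophages, and was higher in neutrophils by 2.57 ± 0.17. Kdm3a, a histone demethylase that HIF induces, was higher by 3.41 ± 0.19, and Mxi1, an antagonist of MYC, by 1.59 ± 0.18.

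The steps that commit glucose to glycolysis were higher in neutrophils under both scalings except Hk3. Pfkfb3, which makes the activator of phosphofructokinase, had 204 and 222 CPM in liproxstatin and 82.7 and 140.4 CPM in control neutrophils, against 38.3 and 33.6 CPM in liproxstatin and 29.6 and 32.1 CPM in control macrophages (3.05 ± 0.18). Hk2, the inducible hexokinase, had 212 and 173 CPM in liproxstatin and 211 and 285 CPM in control neutrophils, against 73.7 and 56.5 CPM in liproxstatin and 62.0 and 65.0 CPM in control macrophages (2.53 ± 0.17). In both genes no neutrophil sum came down to the macrophage sums. Pfkp and Pfkl, subunits of phosphofructokinase, and Hk1, the widespread hexokinase, were higher by 2.45, 1.77 and 1.46. Hk3, a hexokinase of myeloid cells, had 87.3 and 101 CPM in liproxstatin and 61.2 and 119 CPM in control neutrophils, against 89.0 and 83.6 CPM in liproxstatin and 71.1 and 83.8 CPM in control macrophages. Its groups overlapped, and it was higher with TMM at 0.97 ± 0.18 and not called with totals alone at 0.19.

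The later enzymes differed less. Gapdh, which opens the energy-yielding part of glycolysis, had 1146 and 957 CPM in liproxstatin and 964 and 1648 CPM in control neutrophils, against 2373 and 2476 CPM in liproxstatin and 2485 and 2882 CPM in control macrophages. It was lower in neutrophils under both scalings, at -0.40 ± 0.18 with TMM and -1.14 with totals alone, and was not called with clusters (-0.19). Pkm, the pyruvate kinase, had 990 and 951 CPM in liproxstatin and 885 and 1163 CPM in control neutrophils, against 1089 and 1160 CPM in liproxstatin and 980 and 1215 CPM in control macrophages, with overlap. Pkm, Eno1 and Pgam1 were called higher with TMM, at 0.59, 0.56 and 0.82, and were not called with totals alone. Ldha, which turns pyruvate into lactate, had 711 and 590 CPM in liproxstatin and 502 and 839 CPM in control neutrophils, against 845 and 903 CPM in liproxstatin and 784 and 981 CPM in control macrophages. Pdk1, the kinase that blocks pyruvate dehydrogenase, had 31.4 and 26.8 CPM in liproxstatin and 15.3 and 40.1 CPM in control neutrophils, against 16.6 and 17.2 CPM in liproxstatin and 14.7 and 19.3 CPM in control macrophages. Its ranges overlapped through control replicate 1, and it was called higher under both scalings, at 1.63 with TMM.

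The remaining targets were mostly higher in neutrophils. Ero1l, an oxidase of protein folding, had 428 and 344 CPM in liproxstatin and 254 and 414 CPM in control neutrophils, against 78.2 and 74.5 CPM in liproxstatin and 60.02 and 88.4 CPM in control macrophages (3.01 ± 0.18). Bnip3, a mitophagy receptor, had 306 and 262 CPM in liproxstatin and 233 and 296 CPM in control neutrophils, against 128 and 117 CPM in liproxstatin and 104 and 155 CPM in control macrophages (1.89 ± 0.17). Both genes had every neutrophil sum above every macrophage sum. Its relative Bnip3l was higher by 1.89, and P4ha1 by 1.53. Hilpda, an inhibitor of lipid droplet breakdown, had 745 and 549 CPM in liproxstatin and 759 and 1411 CPM in control neutrophils, against 182 and 128 CPM in liproxstatin and 116 and 130.1 CPM in control macrophages. Ankrd37, an ankyrin repeat protein, had 42.6 and 28.9 CPM in liproxstatin and 15.3 and 72.8 CPM in control neutrophils, against 27.6 and 37.3 CPM in liproxstatin and 23.8 and 44.9 CPM in control macrophages. Hilpda did not overlap between the classes, whereas Ankrd37 did and was called with TMM but not with totals alone. Ndrg1, a stress-induced gene, and Ak4, a mitochondrial adenylate kinase, were not called with TMM, and P4ha2 was lower in neutrophils, where 1 UMI was found in all.

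**Figure D2:**
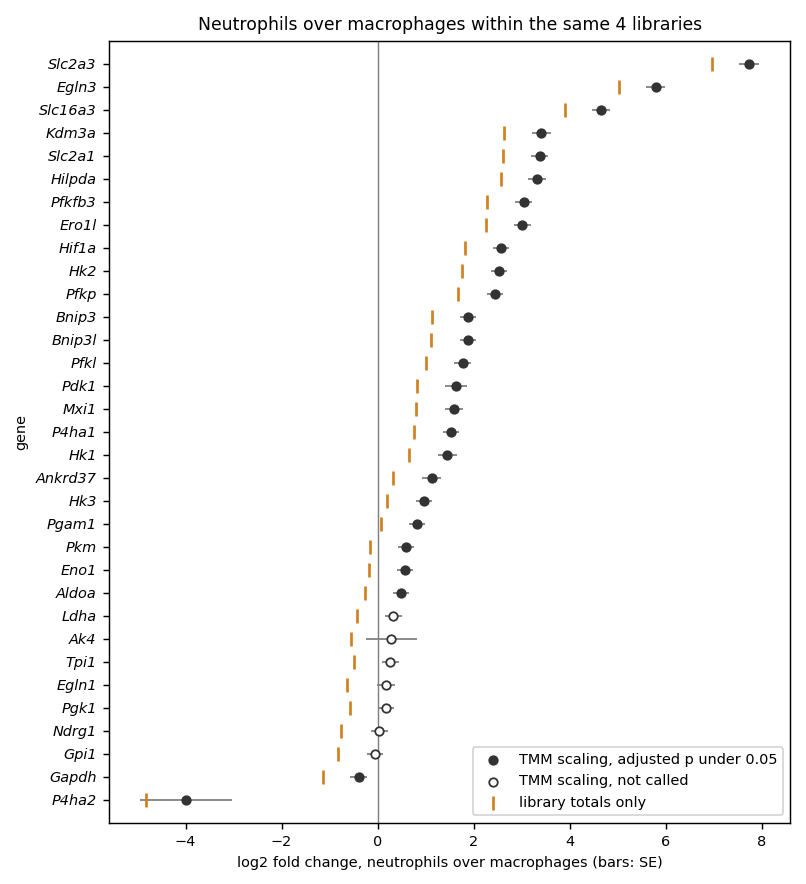
Log2 fold change of the 33 genes, neutrophils over macrophages, with SE bars from 4 libraries. Filled points were called with TMM scaling and open points were not, and ticks give the value with library totals alone; Slc2a3, Egln3 and Slc16a3 are on top with TMM at 7.74, 5.798 and 4.66.

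Markers left out of the gate were used to check it. The neutrophil genes Mxd1, Lcn2, Il1f9 and Hcar2 summed to 6321 and 5845 CPM in liproxstatin and 6647 and 5984 CPM in control neutrophils, against 114 and 90.6 CPM in liproxstatin and 91.0 and 42.6 CPM in control macrophages. RNA free in the droplets, estimated in neutrophils from macrophage markers left out of the gate, could supply 10.6% to 13.7% of neutrophil Gapdh UMIs. The same estimate was 0.206% to 0.272% for Slc2a3, 0.186% to 0.395% for Egln3 and 0.273% to 0.583% for Slc16a3.

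Macrophages had lower levels than monocytes for 26 of the 33 genes and a higher level for 1, where 69.6% of 12826 genes were called, 36.2% as higher and 33.4% as lower. Egln3 had 7.61 and 5.40 CPM in liproxstatin and 4.597 and 10.2 CPM in control macrophages, against 33.2 and 30.1 CPM in liproxstatin and 21.5 and 48.3 CPM in control monocytes. No macrophage sum reached a monocyte sum, and the log2 fold change, macrophages over monocytes, was -2.42 ± 0.09. Hif1a was lower by a log2 fold change of -1.92 ± 0.09, Mxi1 by -1.52, Slc2a1 by -1.49, Hilpda by -1.43 and Slc16a3 by -1.36. P4ha2 was the gene that was higher (2.09 ± 0.24), and Gapdh, Tpi1, Ldha, Hk3, Pdk1 and Ak4 were not called. With library totals alone, 4 genes were higher and 23 lower, against 44.4% and 26.1% of all genes, and the median of all genes was 0.21 in place of 0.05. With classes named from clusters, 11 were higher and 13 lower, against 35.5% and 32.99% of all genes. Egln3, Hif1a, Mxi1, Slc2a1, Hilpda and Slc16a3 were lower there too, whereas Bnip3, Aldoa, Pgk1 and Pgam1 turned to higher. Of 15494 phagocytes, 1650 lay between both classes and 1121 at exactly the lead of 2 markers that the gate asks for.

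Between liproxstatin and control tumours, 1 of the 33 genes was called in macrophages and 0 in the other 10 classes. With 2 libraries per group, a gene that was not called may still differ. P4ha1, the main catalytic subunit of the enzyme that hydroxylates collagen prolines and a known HIF target, lies at chr10:59323296-59373304 on the plus strand (GRCm38). It had 90.4 and 88.4 CPM in liproxstatin macrophages and 68.2 and 75.7 CPM in control macrophages. Both liproxstatin libraries lay above both controls. The log2 fold change, liproxstatin over control, was 0.35 ± 0.08 (SE, 2 libraries per group, edgeR adjusted p = 0.0470). Of the 14527 genes tested in macrophages, 2.19% were called, 1.29% as higher, so 1 call among 33 is near the background. P4ha1 was called in 8 of 13 alternatives, with log2 fold changes of 0.30 to 0.41 and edgeR or DESeq2 adjusted p of 0.0021 to 0.21. It was not called without control replicate 1 (0.30), liproxstatin replicate 1 (0.36) or liproxstatin replicate 2 (0.34), with doublets kept (0.33), or with clusters (0.36). In monocytes and macrophages pooled it was 0.37 ± 0.08 (edgeR adjusted p = 0.0384), where 2.34% of genes were called.

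Hif1a in macrophages, at 126 and 113 CPM in liproxstatin and 96.5 and 96.8 CPM in control, missed the threshold (log2 fold change 0.35 ± 0.08, edgeR adjusted p = 0.0515) and was called in 5 of 13 alternatives. Pfkp had 83.3 and 81.5 CPM in liproxstatin and 67.7 and 73.6 CPM in control (0.26 ± 0.08, edgeR adjusted p = 0.12). In both, and in Pfkfb3 (values above; 0.26 ± 0.09), the liproxstatin libraries lay above both controls. Ndrg1 had 164 and 156 CPM in liproxstatin and 113 and 153 CPM in control (0.31 ± 0.13, edgeR adjusted p = 0.31), without overlap. Pfkl had 75.4 and 85.1 CPM in liproxstatin and 66.0 and 75.8 CPM in control, with overlap. The abundant enzymes were near 0, with 0.03 ± 0.11 for Ldha, 0.04 ± 0.12 for Aldoa, -0.01 ± 0.11 for Eno1 and -0.10 ± 0.11 for Gapdh. In macrophages 27 of 33 log2 fold changes were above 0, against 49.6% of all genes, with a median of 0.08. That median was -0.08 without control replicate 1 and 0.25 without control replicate 2, so 1 control library turns its sign. Libraries of liproxstatin and control were fully separated for 7 genes of the 33 and for 47.2% of all genes.

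In monocytes 0 of 33 genes were called with edgeR or DESeq2, where edgeR called 0.157% of 10216 genes. An unadjusted edgeR p under 0.05 was found for 4 of the 33 genes and for 796 of all 10216. Ndrg1 had 222 and 207 CPM in liproxstatin and 127 and 184 CPM in control (0.54 ± 0.16, edgeR adjusted p = 0.45). P4ha1 had 93.1 and 90.8 CPM in liproxstatin and 69.3 and 82.4 CPM in control (0.35 ± 0.12, edgeR adjusted p = 0.53). In both genes, and in Pfkfb3 and Ak4, the liproxstatin libraries lay above both controls, and these were the only 4 of the 33 genes without overlap, against 40.9% of all genes. Pfkfb3 had 51.7 and 52.2 CPM in liproxstatin and 34.5 and 47.0 CPM in control, and Ak4 had 4.48 and 4.998 CPM in liproxstatin and 1.13 and 3.58 CPM in control. Hilpda had 448 and 330.2 CPM in liproxstatin and 235 and 345 CPM in control, and Hk3 had 74.3 and 78.5 CPM in liproxstatin and 53.2 and 76.7 CPM in control, both with overlap. The gate markers of macrophages were higher in liproxstatin monocytes, at 2512 and 2478 CPM, than in control monocytes, at 1350 and 1148 CPM, and their part in these values was not tested. Without control replicate 2, Ndrg1 was at 0.81, Ankrd37 at 0.89 and Slc2a1 at 0.65. These genes were picked by their values in that fit, which left 1 control library.

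In CD8 T cells 0 of 33 genes were called with edgeR or DESeq2, where edgeR called 0.824% of 11524 genes. An unadjusted edgeR p under 0.05 was found for 6 of the 33 genes and for 1195 of all 11524. Mxi1 had 58.3 and 53.7 CPM in liproxstatin and 43.3 and 35.0 CPM in control (0.54 ± 0.13, edgeR adjusted p = 0.0642). Hif1a had 383 and 333 CPM in liproxstatin and 283 and 244 CPM in control (0.45 ± 0.11, edgeR adjusted p = 0.0786). P4ha1 had 44.1 and 34.0 CPM in liproxstatin and 29.8 and 26.2 CPM in control (0.49 ± 0.14, edgeR adjusted p = 0.14). In all 3 genes the liproxstatin libraries lay above both controls, as they did for 10 of the 33 genes and for 18.9% of all genes. In 12 of the 33 genes the libraries were separated in either direction, against 40.6% of all genes. Ndrg1 had 49.7 and 40.6 CPM in liproxstatin and 22.3 and 35.2 CPM in control (0.60), and Pfkl had 63.8 and 65.8 CPM in liproxstatin and 49.8 and 56.2 CPM in control (0.28). Slc2a3 had 67.6 and 56.9 CPM in liproxstatin and 66.3 and 85.1 CPM in control (-0.29), with overlap. Without control replicate 1, Hif1a was at 0.58, Mxi1 at 0.70, P4ha1 at 0.59 and Hilpda at 1.31. Without control replicate 2, Ndrg1 was at 1.01. These genes were picked by their values in those fits, which left 1 control library.

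In neutrophils 0 of 31 tested genes were called with edgeR or DESeq2, and 3 had an unadjusted edgeR p under 0.05. Of all 5374 genes 0% were called, with 388 at an unadjusted edgeR p under 0.05, and DESeq2 called 0. P4ha2 and Ak4 had too few UMIs to be tested. Pfkfb3 had 204 and 222 CPM in liproxstatin and 82.7 and 140.4 CPM in control, without overlap (0.81 ± 0.25, edgeR adjusted p = 0.38). Hilpda had 745 and 549 CPM in liproxstatin and 759 and 1411 CPM in control (-0.78 ± 0.28, edgeR adjusted p = 0.48). Ndrg1 had 74.5 and 74.3 CPM in liproxstatin and 113 and 104 CPM in control (-0.55 ± 0.22, edgeR adjusted p = 0.59). For Hilpda and Ndrg1 the liproxstatin libraries lay below both controls. P4ha1 had 136 and 110.4 CPM in liproxstatin and 107 and 195 CPM in control, with overlap, and Hk1 had 58.0 and 58.8 CPM in liproxstatin and 42.9 and 45.3 CPM in control, without overlap. The log2 fold change was above 0 for 10 of 31 genes, against 50.9% of all genes, and its median was -0.18. That median was -0.36 without control replicate 1 and 0.19 without control replicate 2, so 1 control library turns its sign. In 9 of the 31 genes the libraries were separated, against 35.9% of all genes. Without control replicate 1, which held 85 neutrophils, Hilpda was at -1.15 and Ankrd37 at -0.998. Without control replicate 2, Pfkfb3 was at 1.38. These genes were picked by their values in those fits, which left 1 control library.

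**Figure D3:**
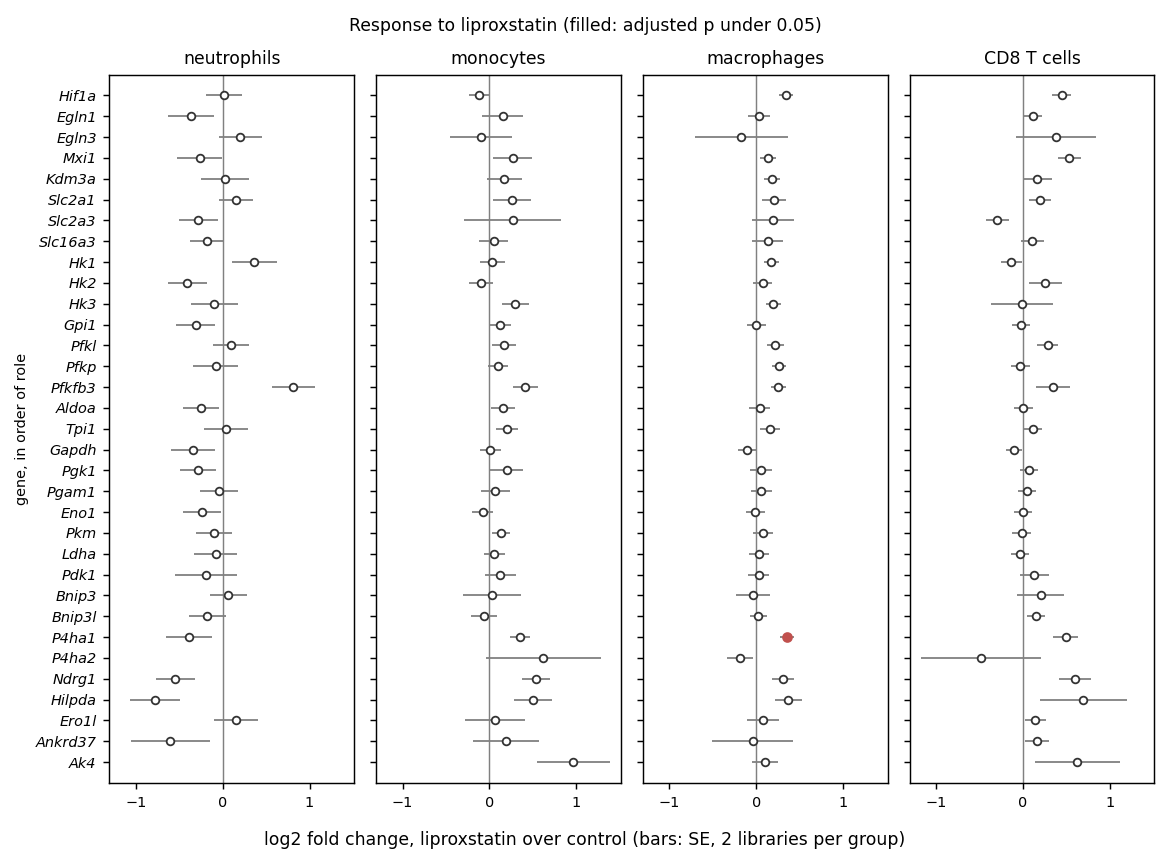
Log2 fold change, liproxstatin over control, of the tested genes in 4 classes, with SE bars from 2 libraries per group. The single filled point, P4ha1 in macrophages at 0.35, was called.

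Whether neutrophils and macrophages responded differently was tested with an interaction term. For 0 of 33 genes was the difference called with edgeR or DESeq2, where edgeR called 0.0593% of 13501 genes. An unadjusted edgeR p under 0.05 was found for 3 of the 33 genes and for 427 of all 13501. Hilpda had a difference in log2 fold change, neutrophils minus macrophages, of -0.90 ± 0.32 (edgeR adjusted p = 1). It was called in 7 alternatives, with -0.97 to -1.46, among them RLE size factors (-1.02) and library totals alone (-1.03), and without control replicate 1 it was -1.46. P4ha1, at -0.53 ± 0.32, was called with clusters (-0.97) and was at -0.96 without control replicate 1.

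The other 7 classes ranged from 114 B cells to 1345 NK cells, against 1304 neutrophils. Between 12 genes in B cells and 31 in NK cells could be tested, 0 were called with edgeR or DESeq2, and the share of all genes called was 0% in B cells, 0.00971% in NK cells, 0.026% in conventional and 0.107% in plasmacytoid dendritic cells, 0.0353% in conventional CD4 and 0.147% in regulatory T cells, and 0.505% in mast cells or basophils. Hilpda in mast cells or basophils had 79.1 and 29.3 CPM in liproxstatin and 4.68 and 14.5 CPM in control (2.38 ± 0.61, edgeR adjusted p = 0.15), with both liproxstatin libraries above both controls. Free RNA could supply 9.17% to 148% of its UMIs over the 4 libraries. Hilpda was called there with no filter on low counts (2.41) and with a replicate block (2.34). It was at 3.48 without control replicate 2 and at 3.06 without liproxstatin replicate 2. Ndrg1 in that class was at 1.455 without control replicate 2 and at 1.23 without liproxstatin replicate 2. In NK cells without control replicate 1, Ankrd37 was at -1.38, Bnip3 at -0.98, Slc2a3 at -0.77 and Gapdh at -0.33. Without control replicate 2, Hilpda was at 0.63 and Ndrg1 at 0.94 there. Genes named for fits without a library were picked by their values in those fits, which left 1 library in a group.

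**Figure D4:**
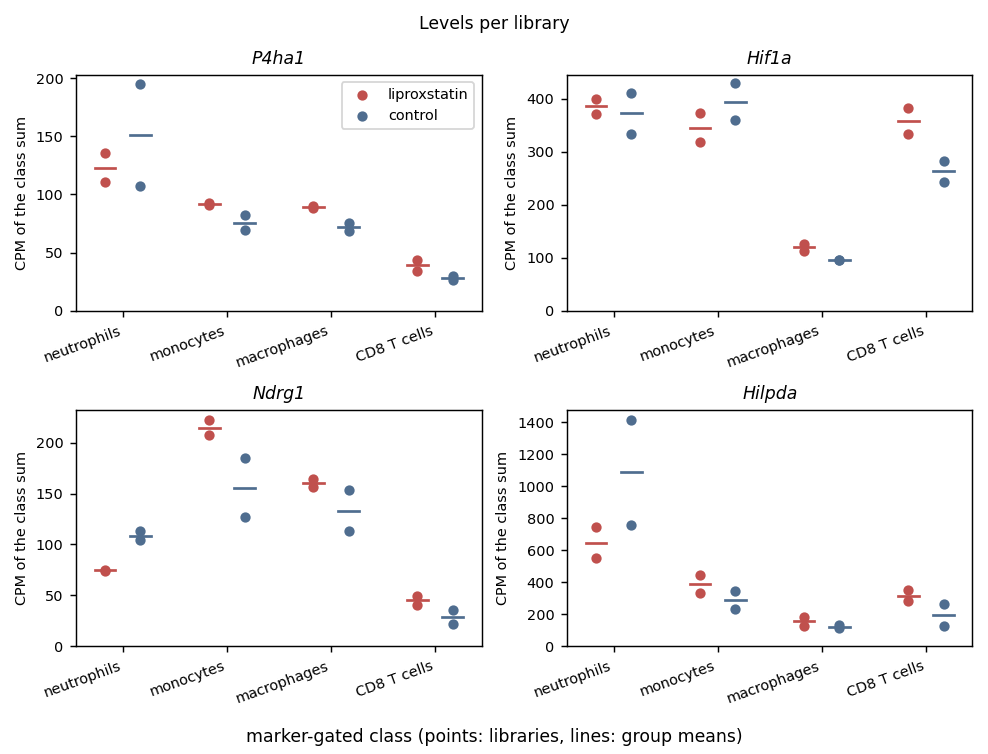
CPM per library (points) and group means (lines) of P4ha1, Hif1a, Ndrg1 and Hilpda in 4 classes, liproxstatin left of control. Hilpda in neutrophils lies at 745 and 549 CPM in liproxstatin and at 759 and 1411 CPM in control.

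The control libraries differed from each other across the genes. In macrophages all 33 genes were higher in control replicate 2 than in control replicate 1, as were 58.6% of all genes, and the median ratio was 1.24. In monocytes all 33 were, against 55.2% of all genes, with a median ratio of 1.44. In neutrophils 27 of 31 were, against 45.1% of all genes, with a median ratio of 1.40. Among lymphoid cells the order held for 21 of 33 genes in CD8 T cells (53.7% of all genes) and 24 of 31 in NK cells (48.1%). In conventional CD4 T cells it held for 20 of 28 (52.0%), and in regulatory T cells for 14 of 30 (51.2%). It held for 17 of 22 in plasmacytoid dendritic cells (53.1%) and 17 of 25 in mast cells or basophils (48.1%). In conventional dendritic cells it held for 7 of 29 (61.6%), and in B cells for 5 of 12 (49.4%). Between liproxstatin replicates 2 and 1 it held for 17 of 33 genes in macrophages (36.6% of all genes), 13 of 33 in monocytes (49.7%) and 5 of 31 in neutrophils (57.2%).

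Both liproxstatin libraries lay between the controls for 16 of 33 genes in macrophages (11.6% of all genes), 21 of 33 in monocytes (21.8%) and 12 of 31 in neutrophils (23.2%). Ankrd37 in macrophages was at -0.41 without control replicate 1 and at 0.47 without control replicate 2, and Egln3 at -0.60 and 0.52. Without control replicate 2, 7 of the 33 genes were called higher in macrophages, namely Ankrd37, Egln3, Hilpda, Ndrg1, P4ha1, Slc16a3 and Slc2a1, against 2.27% of all genes. Red cell markers, 4 of 4 detected, summed in macrophages to 13.1 and 5.76 CPM in liproxstatin and 14.2 and 37.7 CPM in control. Fibroblast markers, 6 of 6 detected, summed to 13.1 and 10.8 CPM in liproxstatin and 19.4 and 11.7 CPM in control. The median macrophage held 27400 and 23691 UMIs in liproxstatin and 29760 and 32133.5 UMIs in control. The part of these measures in the gap between the controls was not tested.

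**Figure D5:**
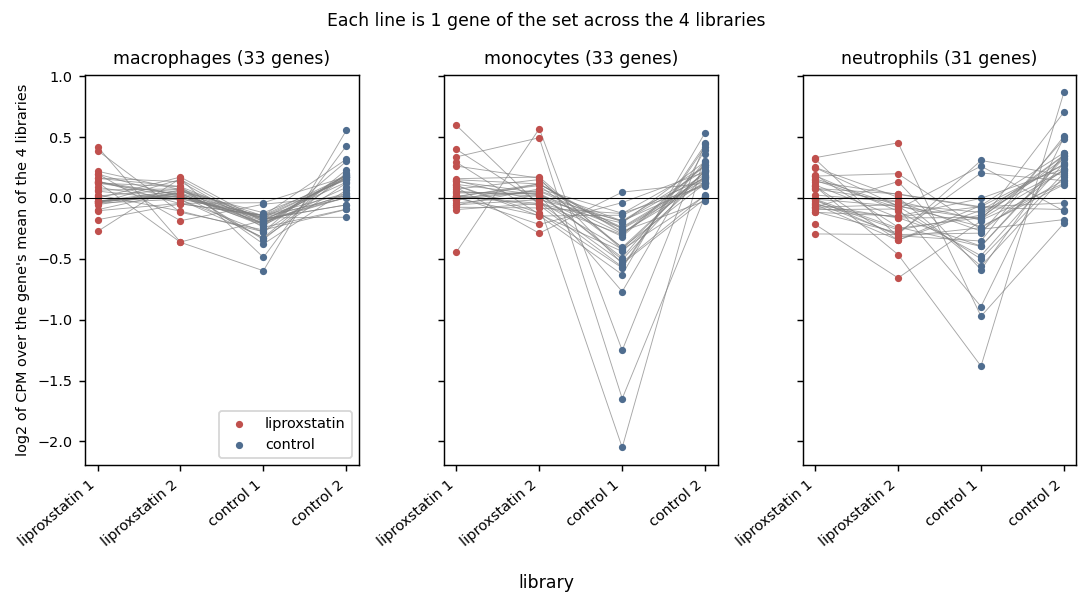
Log2 of each gene's CPM over its mean of the 4 libraries, in macrophages, monocytes and neutrophils; each line is 1 gene, liproxstatin libraries left of control libraries. All 33 lines climb between the control libraries in macrophages and in monocytes, as do 27 of 31 in neutrophils.

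With each macrophage thinned to 5000 UMIs, a P4ha1 UMI was found in 34.9% and 34.1% of cells in liproxstatin and 26.7% and 31.2% in control. The difference was 5.56 points (exact permutation p = 0.33, two-sided, the smallest that these libraries can give). Without thinning the shares were 77.5% and 77.0% in liproxstatin and 69.3% and 77.6% in control, with overlap. Thinning left out 249 and 98 liproxstatin cells and 211 and 204 control cells. Egln3 was found in 26.0% and 24.3% of liproxstatin and 18.1% and 27.9% of control neutrophils thinned to 2000 UMIs, against 3.55% and 2.65% of liproxstatin and 2.15% and 4.54% of control macrophages thinned to 5000. In CD8 T cells thinned to 5000 UMIs it was found in 0.752% and 0.427% in liproxstatin and 1.498% and 0.5997% in control, and free RNA could supply 7.26% to 32.6% of its UMIs there. The median cell held 3357 UMIs in neutrophils, 27245 in macrophages and 12460 in CD8 T cells.

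Within macrophages some targets varied together from cell to cell. The correlation of a gene with the summed other HIF targets ran over the 4 libraries from 0.590 to 0.637 for Bnip3, 0.588 to 0.634 for Ndrg1, 0.520 to 0.595 for Slc2a1, 0.490 to 0.620 for Hilpda and 0.50 to 0.60 for Ero1l. It was lower for P4ha1 (0.158 to 0.225), Hif1a (0.102 to 0.122) and Hk3 (0.0125 to 0.0592). Aldoa correlated at 0.667 to 0.714, and Pgk1 at 0.655 to 0.690, with the sum of the other glycolytic genes. That sum held the transporters Slc2a1, Slc2a3 and Slc16a3 as well as enzymes. Of 6595 other genes, those with the highest mean correlation with the targets were Arg1 (0.57), which encodes an arginase of tumour macrophages, Mmp12 (0.52), a macrophage elastase, and Lgals3 (0.51), a galectin. They were chosen after their values were seen. These are descriptions over cells that share a library and its depth.

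Of 49 other genes of the HIF pathway, 47 were tested in macrophages, 37 in monocytes, 41 in CD8 T cells and 25 in neutrophils. Of all genes, 2.19% were called in macrophages, 0.157% in monocytes, 0.824% in CD8 T cells and 0% in neutrophils, so 1 call of 47 in macrophages is near the background. In macrophages 0 rose and 1 fell, Selenbp1, a selenium-binding protein, with 23.8 and 25.6 CPM in liproxstatin and 32.7 and 40.6 CPM in control (-0.53 ± 0.11, edgeR adjusted p = 0.0336). In monocytes 1 rose and 0 fell, Mt1, a metallothionein, with 667 and 503 CPM in liproxstatin and 229 and 280 CPM in control (1.28 ± 0.15, edgeR adjusted p = 0.0293). In CD8 T cells 1 rose and 0 fell, Cited2, which competes with HIF1A for a coactivator, with 112 and 114 CPM in liproxstatin and 50.6 and 59.8 CPM in control (1.03 ± 0.12, edgeR adjusted p = 0.000274). The groups did not overlap for any of these 3 genes. In neutrophils 0 of the 25 were called. Of 15 genes of the pentose phosphate pathway and of pyruvate entry into mitochondria, 0 were called in these 4 classes with edgeR. The lowest p was that of G6pdx, the entry enzyme of the pentose phosphate pathway, in neutrophils, with 16.5 and 18.6 CPM in liproxstatin and 21.4 and 46.8 CPM in control (-1.20 ± 0.36, edgeR adjusted p = 0.38), without overlap. Pdhx and Pdha1, of the pyruvate dehydrogenase complex, followed in CD8 T cells (-0.55 ± 0.24 and -0.22 ± 0.12).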

How the data were processed

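Single-cell 3′ libraries were made with 10x Genomics reagents, per the labels' protocols. The deposited matrices hold UMI counts per gene and cell, made by the authors with Cell Ranger 4 on mm10 per the submitters' processing notes, whereas the file headers name Cell Ranger 6.1.1. Cells with at least 200 genes and under 15% mitochondrial UMIs were kept, after the highest Scrublet doublet scores had been removed. Classes were gated on markers, with numeric limits set after seeing the cells. Counts were summed per library and class and tested with edgeR 4.0.16 (quasi-likelihood, filterByExpr, TMM, Benjamini-Hochberg over all genes of the fit, threshold 0.05) in R 4.3.3; a standard error is the log2 fold change over the square root of F. DESeq2 1.42.0, RLE scaling, no filter, other gates, Leiden clusters and leaving out each library were alternatives. Scripts were tested on simulated data. Class comparisons had library as a block. Members and lists were chosen with earlier results of these data known. Values per library are given for called genes, the 6 lowest p in each of 4 classes, and a core by role; of other lists, called genes, otherwise the 3 lowest p. Total depth was 83129874 to 168597163 UMIs per library.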

Additional observations from a re-analysis of the deposited data

Results flagged for a closer look

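Leaving aside neutrophils against macrophages, a gene moved in opposite directions in 2 classes in 4 cases. In these, liproxstatin libraries did not overlap with control libraries in either class. Neither change was called in any of these cases in the fit of all 4 libraries, and the difference between the classes was not tested. Hk1 had a log2 fold change, liproxstatin over control, of 0.36 in neutrophils and -0.13 in CD8 T cells. Ndrg1 had -0.55 in neutrophils, 0.54 in monocytes and 0.60 in CD8 T cells, which makes 2 of the cases. Hilpda had -0.78 in neutrophils and 0.70 in CD8 T cells. Without control replicate 1 it was at -1.15 in neutrophils and at 1.31 in CD8 T cells. Between neutrophils and CD8 T cells this pattern held for 3 of 31 genes and for 5% of all genes tested in both, and between neutrophils and monocytes for 1 of 31 and 5.1%. For neutrophils and macrophages, whose difference in response was tested above, it held for 1 of 31, Ndrg1, and for 4.98% of all genes. That difference was not called for Ndrg1 in the fit of all 4 libraries.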

How the results depend on the processing

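With 2 libraries per group, 1 library decides most counts. Leaving out each library in turn gave 0 to 2 called genes of the set in neutrophils, 0 to 3 in monocytes, 0 to 7 in macrophages, 0 to 4 in CD8 T cells, 0 to 4 in the other classes and 0 to 2 for the difference in response. Over all genes it gave 2 to 164 calls in neutrophils, 0 to 185 in monocytes, 55 to 754 in macrophages and 3 to 454 in CD8 T cells; a lone library was assumed to vary like the other group. In macrophages Ankrd37 was -0.41 without control replicate 1 and reversed to 0.47 without control replicate 2, and Egln3 was -0.60 and 0.52. Without a filter on low counts, 2 genes of the set were called in monocytes, 4 in macrophages, 4 in CD8 T cells, 1 in the other classes and 1 for the difference in response, and 36, 234, 1079 and 379 of all genes in neutrophils, monocytes, macrophages and CD8 T cells. DESeq2 called 2 genes of the set in macrophages and 30 of all genes in monocytes. Equal cells per library gave 1, 10 and 63 calls over all genes in neutrophils, monocytes and CD8 T cells, and 1 gene of the set for the difference in response. With doublets kept, 7 and 188 of all genes were called in neutrophils and macrophages, 0 of the set in macrophages and 1 for the difference in response. A mitochondrial share under 8% gave 5 calls in neutrophils and 2 of the set in macrophages. The stricter gate gave 27 and 62 calls over all genes in monocytes and CD8 T cells, and 3 of the set in macrophages. Clusters gave 13 and 35 calls in neutrophils and CD8 T cells, 0 of the set in macrophages and 2 for the difference in response. RLE factors and library totals alone each gave 1 for that difference, and pooling monocytes with macrophages gave 1 of the set. Where only the set's count in macrophages is given, here and with a replicate block below, it lacks a background over all genes. The main fit called 318 of 14527 genes in macrophages. The causes were not tested.

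Replicate numbers were not shown to pair the libraries: same-numbered deviations correlated at -0.03 to 0.09 in the 4 main classes and at -0.16 to 0.17 over all classes. With a replicate block, 33 and 285 of all genes were called in neutrophils and CD8 T cells, and 2, 3 and 1 of the set in macrophages, CD8 T cells and the other classes. In conventional dendritic cells, where the correlation was -0.16, crossed pairing called 45 genes as higher and 39 as lower, with 0 of the set. Single-gene values and the set's medians were compared with the main fit in every alternative. Of these, 402 in macrophages, 404 in monocytes, 390 in neutrophils and 414 in CD8 T cells counted as unchanged. A gene did so if it kept its side of the threshold and either kept its direction or moved by less than its standard error. Medians had to move by less than a typical standard error. The rest moved further (19, 25, 22 and 10), were newly called (14, 5, 3 and 12), or in macrophages lost their call (5) or reversed (2).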
